A study of Mus musculus with 2031 samples.

Results

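Polyamine metabolism was described through 8 genes of mouse brain cells: Sat1, Odc1, Oaz1, Oaz2, Azin1, Amd1, Srm and Sms. They were selected on the name of the gene from a table of 49671 gene identifiers, and all 8 were found. Sat1 was chosen because its level stood out in the astrocyte subtype AST2, and the subtypes were found by clustering these same counts, so the levels across subtypes are given as a description without a test. Another 28 genes of polyamine breakdown, transport, hypusine synthesis and methionine salvage were followed beside them.

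Single cells came from C57BL/6J mice at postnatal day 56, in 4 suspensions. The 2 cortical suspensions were each made from 1 mouse, the mice being littermates, and the 2 hippocampal suspensions were each pooled from 4 littermates. No treatment or genetic change was applied. Cells were sorted as viable, positive for the astrocyte surface protein ATP1B2 and negative for the oligodendrocyte lipid antigen O1, and read by Smart-seq2, a full-length method that adds no molecular tags and therefore counts reads. Counts of 2030 cells were used, with 600758 to 3238215 gene counts per cell and a median of 1458411. Types and subtypes were taken from the published assignment of cells. There were 1781 astrocytes in subtypes AST1 to AST5 (657, 555, 452, 91 and 26 cells), and the mural cells of the vessel wall numbered 27 and 12 in the cortical and 48 and 47 in the hippocampal suspensions. The other types held 30 endothelial cells, 17 neurons, 11 microglia and 9 oligodendrocytes. Region and mice cannot be told apart, since no litter gave both regions. Levels are counts per 1000000 gene counts (CPM) of all cells of a type in a suspension summed, and a mean ± SD is over the suspensions with at least 5 such cells.

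The cell types were checked against their markers. The 8 astrocyte markers summed to between 31012 and 34479 CPM in astrocytes of the 4 suspensions, and the 7 mural markers to between 48969 and 58906 CPM in mural cells. In endothelial cells the 6 endothelial markers reached 15175 to 20997 CPM, with mural markers also present at 10008 to 25818 CPM. Immediate early and stress genes (16 in the list) summed to 655 to 1088 CPM in astrocytes and to 7172 to 26711 CPM in mural cells. They summed to 10469 to 25548 CPM in endothelial cells and to 17285 to 40820 CPM in microglia.

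Polyamines are small positively charged molecules that bind nucleic acids and, in the brain, are stored mainly in glia. Ornithine decarboxylase (Odc1) makes putrescine, S-adenosylmethionine decarboxylase (Amd1) supplies the aminopropyl donor, and spermidine synthase (Srm) and spermine synthase (Sms) use it to build spermidine and spermine. Antizymes (Oaz1, Oaz2) bind ornithine decarboxylase and send it to the proteasome, the antizyme inhibitor (Azin1) takes antizyme away from it, and spermidine/spermine N1-acetyltransferase (Sat1) acetylates polyamines for export or oxidation.

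Antizyme is itself controlled by polyamines through its coding sequence. Its reading frame is cut short by a stop codon, and the full protein is made only when the ribosome slips forward by a base at that stop, which polyamines promote. The sites of both antizyme genes are shown because Oaz2 was the member called higher in vessel cells, with Oaz1 beside it for comparison. Capitals mark the last codon of the first frame, TCC, and the stop TGA.
Oaz1: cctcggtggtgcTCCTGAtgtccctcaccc
Oaz2: cctctgtggtgcTCCTGAtgcccctcaccc
The Oaz1 site lies in an exon at chr10:80828280-80828309 and the Oaz2 site in an exon at chr9:65686257-65686286, both on the plus strand of GRCm38 (GENCODE transcripts). Of the 30 bases, 28 are the same in both genes. The Oaz1 stretch also occurs in the transcript of the copy Oaz1-ps, and that of Oaz2 in Gm7543.

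On GRCm38, Sat1 (ENSMUSG00000025283.15) spans chrX:155213132-155216449 and Sms (ENSMUSG00000071708.11) chrX:157443855-157492287, both on the minus strand. Odc1 (ENSMUSG00000011179.7) spans chr12:17544794-17551505, Oaz1 (ENSMUSG00000035242.15) chr10:80826656-80829290, Oaz2 (ENSMUSG00000040652.16) chr9:65668001-65690300 and Srm (ENSMUSG00000006442.10) chr4:148591503-148594993, all on the plus strand. Azin1 (ENSMUSG00000037458.14) spans chr15:38487427-38519266 and Amd1 (ENSMUSG00000075232.5) chr10:40287458-40302186, both on the minus strand. Only reads with a single place in the genome were counted, which bears on genes with copies. Of the 75-base windows of its transcripts, Amd1 shared 72.5% with other genes, Oaz1 16.99%, Sms 16.9% and Odc1 16.6%, while Azin1 shared 4.37%, Oaz2 3.37%, Sat1 0.94% and Srm none. The copy Oaz1-ps held 6.95% as many counts as Oaz1, and 1594 of the 1596 cells with it also had Oaz1. Levels of Amd1, and to a lesser degree of Oaz1, Sms and Odc1, are therefore uncertain as levels.

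Across astrocytes, Sat1 stood far above the other members when compared per kilobase of exon. Its level was 1039.5 ± 203.001 CPM per kilobase (SD, n = 4 suspensions), followed by Oaz1 at 88.99 ± 4.62 and Srm at 73.2 ± 12.3. Oaz2 was at 42.8 ± 4.33, Amd1 at 21.05 ± 4.33 and Azin1 at 20.9 ± 1.52 CPM per kilobase, so that Amd1 and Azin1 did not differ beyond their spread. Odc1, the enzyme that opens the pathway, was at 6.98 ± 1.29 and Sms at 0.797 ± 0.268 CPM per kilobase. Oaz1 was above Srm in each of the 4 suspensions, by little in cortex 1 (92.4 against 91.2). The length used is that of all annotated exons of a gene together. For Oaz1 (2558 bases) this includes a transcript of 2526 bases that keeps an intron, beside a coding one of 538 bases. The gap between Oaz1 and Srm, and the order of the members per kilobase, depend on that choice, and other lengths were not tried.

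The share of cells with at least 1 count was taken over all 2030 cells, of every type. Sat1 and Oaz1 were again highest and Odc1 and Sms lowest, while Srm ranked lower than by level. Sat1 was seen in 90.1% of cells, Oaz1 in 80.7%, Oaz2 in 36.5% and Amd1 in 32.9%. Srm was seen in 26.3%, Azin1 in 25.2%, Odc1 in 6.995% and Sms in 4.38%. In astrocytes alone Amd1 (33.7%) was above Oaz2 (32.2%). A typical astrocyte held counts of only a few members: 3 of the 8 was the most common number (597 cells, 33.5%). There were 13 astrocytes with none, and no astrocyte had all 8. Between members, Spearman's rho over the 1781 astrocytes lay between -0.09 (Sat1 with Oaz1) and 0.07 (Oaz1 with Oaz2), which in counts this sparse is a description only.

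Sat1, the breakdown enzyme, differed in level between the astrocyte subtypes in every suspension. In AST2 it was 4294 CPM in cortex 1, 3836 in cortex 2, 5209 in hippocampus 1 and 3893 in hippocampus 2. In AST3 the values in the same order were 3034, 2595, 3346 and 2863 CPM, and in AST1 they were 2518, 1820, 2463 and 2395 CPM. The lowest AST2 value was above the highest AST3 value, and AST3 was above AST1 within each of the 4 suspensions.

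On the log2 scale AST2 exceeded AST1 by 0.91 ± 0.20 (SD, n = 4; range 0.70 to 1.08) and AST3 by 0.54 ± 0.08 (0.44 to 0.64) within a suspension. AST3 exceeded AST1 by 0.37 ± 0.13. Levels were far lower in AST4, most cells of which came from hippocampus, at 754 and 648 CPM in hippocampus 1 and 2. AST5 was at 626, 499 and 544 CPM in cortex 1, cortex 2 and hippocampus 1. The mean was 701 ± 74.9 CPM in AST4 (n = 2) and 556 ± 64.4 CPM in AST5 (n = 3). These sums did not overlap, but the median cell was at 394 CPM in AST4 and 455 CPM in AST5. The 2 AST5 cells of hippocampus 2, too few for a sum, were together at 834 CPM, so AST4 and AST5 were not ordered. A median of 1.49% of the reads of AST5 cells fell outside exons, against 11.99% in astrocytes as a whole, so this subtype also stood apart in RNA make-up. The astrocyte markers summed to 22964 and 20697 CPM in the AST4 sums and to 15995 to 19714 CPM in the AST5 sums, against 30646 to 36933 CPM in AST1 to AST3. Immediate early and stress genes summed to 259.2 to 392.98 CPM in AST1, 291.1 to 835 in AST2, 995 to 2110 in AST3, 2808 and 4305 in AST4 and 0.115 to 127.5 in AST5. The part of either list in the Sat1 levels was not tested.

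The subtype difference was one of level more than of detection. Sat1 had a count in 98.02% of AST2, 97.6% of AST3 and 94.1% of AST1 cells, and in 72.5% of AST4 (Wilson 95% interval 62.6 to 80.6%) and 57.7% of AST5 cells (38.9 to 74.5%). Thinned to 50000 counts per cell the shares were 96.9% in AST2, 97.1% in AST3, 90.9% in AST1, 63.7% in AST4 and 57.7% in AST5. The median cell was at 3303 CPM in AST2, 2277 in AST3 and 1948 in AST1, and the middle ranges of the cells overlapped, from 1775 to 5533 CPM in AST2 and from 924 to 3432 CPM in AST1. Relative to the ERCC spike-in RNAs added to each well, AST2 was at 78544 ± 6547 and AST3 at 71742 ± 10532 Sat1 counts per 1000000 ERCC counts, against 43929 ± 7891 in AST1. On that scale AST2 and AST3 did not differ beyond their spread, and AST4 was at 16638 ± 285.8 and AST5 at 8782 ± 2125.

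**Figure D1:**
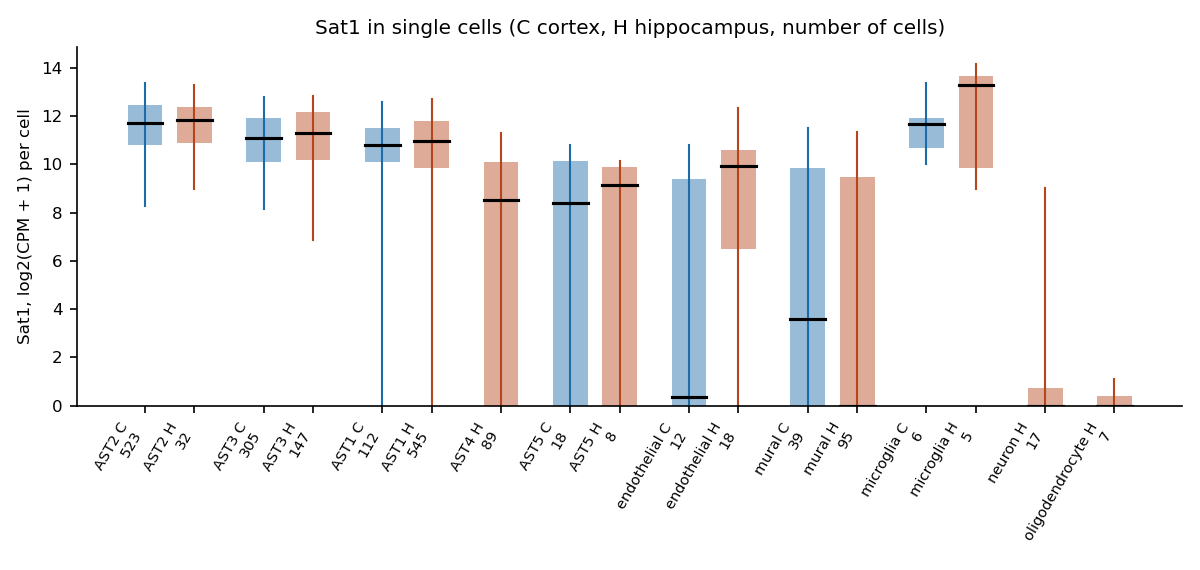
Sat1 in single cells by type and region, as log2(CPM + 1); boxes span the interquartile range of the cells, lines the 5th to 95th percentile and black bars the median, with the number of cells under each name. AST1, AST2 and AST3 have high medians in both regions, as have microglia, and the lines of all types but AST2, AST3 and microglia reach down to 0.

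In cells other than astrocytes Sat1 ranged from nearly absent to very high. All 11 microglia, the immune cells of the brain, had counts, and their sums of 2 or 3 cells were 1845, 7120, 5570 and 9186 CPM in cortex 1, cortex 2, hippocampus 1 and hippocampus 2. Neurons were at 125 and 32.2 CPM in hippocampus 1 and 2, and the 9 oligodendrocytes at 130.7 CPM in cortex 1 and below 1 CPM in both hippocampal suspensions. These sums rest on few cells and are given as values. Immediate early and stress genes were high in microglia as given above, and their part in the Sat1 level was not tested.

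Hippocampal and cortical astrocytes were compared next, with the suspension as the replicate. Sat1 was 3541 and 3159 CPM in the cortical and 2476 and 2358 CPM in the hippocampal suspensions. The regions did not overlap, and hippocampus was lower by 0.45 (SE 0.06) on the log2 scale, but the gene did not pass the test (edgeR quasi-likelihood, adjusted p = 0.202; DESeq2 adjusted p = 5.46e-09; edgeR on cells thinned to 50000 counts, adjusted p = 0.0483). Sat1 was chosen for its level in AST2, a mostly cortical subtype. Its p-values for region over all astrocytes are therefore not independent of that choice and only describe how far the sums differ. Within cells of library PCR thermal block 1, which held all cortical but only 52 and 61 hippocampal astrocytes, the log2 difference was -0.53, and within cells whose template-switching oligonucleotide had 0 or 1 freeze/thaw cycles it was -0.49 and -0.36. Over the 8 plates of each suspension the median plate was at 3550 and 3169 CPM in cortex and at 2402 and 2369 CPM in hippocampus.

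No member was called between the regions, where 0.0% of the 19160 genes tested were called by edgeR, 2609 genes lay below an unadjusted p of 0.05 and 1823 were called by DESeq2. Amd1, the decarboxylase that feeds both synthases, was 63.1 and 62.4 CPM in cortex against 95.1 and 77.6 in hippocampus, a log2 difference of 0.48 (SE 0.14, adjusted p = 0.284 by edgeR, 0.0485 by DESeq2). Oaz2 was 137.4 and 140.96 CPM in cortex against 116.4 and 117.5 in hippocampus, a log2 difference of -0.23 (SE 0.08, adjusted p = 0.365), which was -0.98 within library PCR thermal block 1 and there rests on the same 52 and 61 hippocampal cells. The hippocampal values of Amd1 all lay above, and those of Oaz2, Odc1 and Sms all below, the cortical values, while Oaz1, Azin1 and Srm overlapped. The gap was small for Odc1 (25.9 CPM in cortex 1 against 23.1 in hippocampus 1) and Sms (4.26 in cortex 2 against 4.04 in hippocampus 1). With 2 sums in each region, values can separate without a regional difference. How many of all genes separate was not counted, so no result about the members is drawn from it. None of the 23 other polyamine-related genes tested was called by edgeR either, while DESeq2 called Slc3a2 (adjusted p = 4.88e-08), which edgeR also called with thinned cells, and Sat2 (0.0430). The median log2 difference was -0.21 over the members and 0.01 over all genes.

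The regions held different shares of the subtypes. AST2 made up 52.1 and 56.7% of astrocytes in the cortical and 2.54 and 5.14% in the hippocampal suspensions. AST1 made up 12.36 and 11.02% against 68.96 and 64.02%. AST4, with its low Sat1 level, made up 0.434 and 0.0% against 10.4 and 11.2%. With AST1, AST2 and AST3 set to the same shares in each suspension, Sat1 came to 3212 and 2658 CPM in cortex and 3558 and 2989 CPM in hippocampus, so that the regions overlapped. The log2 difference of the region means went from -0.47 as summed to 0.16 at equal shares. The first value includes AST4 and AST5 and the second leaves them out, so they cover different cells. The same calculation took Oaz2 from -0.25 to 0.07 and Sms from -0.57 to 0.09, with overlapping regions, Amd1 from 0.46 to 0.23, also overlapping, and Odc1 from -0.39 to -1.07. Azin1 went from -0.05 to 0.34, with regions that no longer overlapped. This calculation uses the hippocampal AST2 sums of 10 and 22 cells and the subtype levels for which Sat1 was chosen, and the part of the shares in the regional difference was not tested.

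Within a subtype, Sat1 did not pass the test for region. In AST1 the log2 difference was 0.20 (SE 0.15, adjusted p = 0.930), in AST3 0.20 (SE 0.15, adjusted p = 1.00) and in AST2 0.04 (SE 0.15, adjusted p = 0.962), all by edgeR. The sums of the 2 regions overlapped in each, and the hippocampal AST2 sums rest on 10 and 22 cells. No member was called in AST1, where 0.0109% of all genes were called, in AST2, where 4.16% were, or in AST3, where 0.0272% were. Without the second hippocampal suspension the log2 difference in AST2 was -1.96 for Amd1 and -1.18 for Oaz1. Without the first it was 1.14 for Amd1, so single hippocampal sums of AST2 decide those values. In these fits hippocampal AST2 is 1 sum, assumed to vary like the other sums of the joint fit. Over the 11 alternatives for AST2, Amd1 was called in 2 and Odc1, Oaz1 and Srm in 1 each. Values of Odc1 ran from -15.6 to -1.03 and those of Srm from -2.89 to 0.23.

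The region effects of the subtypes were also compared with each other. No member was called between AST2 and AST1 (3.18% of genes called) or between AST3 and AST2 (2.53%). None was called between AST3 and AST1 either (0.0%, with 1205 genes at an unadjusted p under 0.05, and edgeR alone run). For Sat1 the difference of the effects had an adjusted p of 0.865 between AST2 and AST1.

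**Figure D2:**
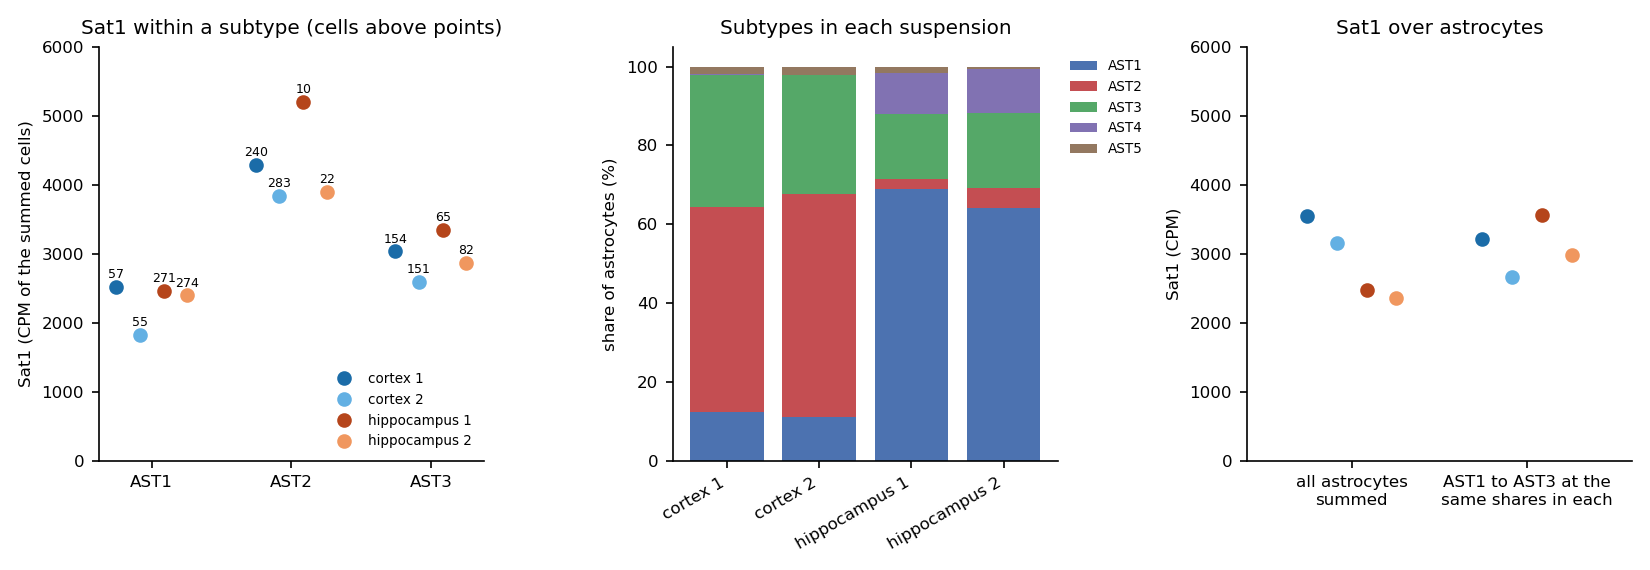
Left, Sat1 CPM of AST1, AST2 and AST3 in each suspension, with the number of cells above each point; middle, share of the 5 subtypes among astrocytes in percent; right, Sat1 CPM over all astrocytes and with AST1 to AST3 at the same shares. The 2 cortical suspensions are above the hippocampal ones as summed, and the regions overlap at equal shares.

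Of the 23 related genes tested for region within a subtype, 2 were called, both lower in hippocampal AST2, where 4.16% of all genes were called. Dohh, which completes the hypusine residue of the translation factor eIF5A, had no count in the 10 and 22 hippocampal AST2 cells against 31.9 and 35.6 CPM in cortical AST2 (adjusted p = 0.00246 by edgeR), and 6.13% of all AST2 cells held a count of it. In AST1 it was 38.0 and 23.4 CPM in hippocampus against 67.7 and 68.3 in cortex. Enoph1, an enzyme of methionine salvage, was 0.626 and 3.21 CPM in hippocampal AST2 and 86.6 and 45.3 CPM in cortical AST2 (adjusted p = 0.0306). Both calls held in 8 of 11 alternatives and were lost without either cortical suspension and with AST2 fitted alone (highest adjusted p 0.288 for Dohh and 0.386 for Enoph1). The log2 difference of the median gene in AST2 was -0.89, toward lower values in the few hippocampal cells, and by edgeR neither gene was called in AST1 or AST3.

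The antizymes and their inhibitor were followed across the same subtypes. Oaz1 was 196.9 ± 29.6 CPM in AST1, 188.6 ± 50.6 in AST2 and 220.95 ± 44.4 in AST3 (n = 4 each), which overlap, and 344.7 ± 30.4 in AST4 (n = 2) and 415.96 ± 173.8 in AST5 (n = 3). Oaz2 was 110.996 ± 19.8 CPM in AST1, 165.1 ± 51.6 in AST2 and 128.5 ± 26.7 in AST3. Both antizymes were higher in AST4 than in AST1 within each of the 2 hippocampal suspensions. Azin1, which counters them, was 115.99 ± 12.6 CPM in AST1, 205.4 ± 100.97 in AST2, 112.9 ± 37.1 in AST3 and 226.3 ± 16.1 in AST4.

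Among the synthesis genes the subtypes could hardly be ordered. Srm was 89.2 ± 29.7 CPM in AST1, 106.6 ± 60.1 in AST2 and 109.2 ± 49.7 in AST3, and 197.6 ± 3.30 in AST5 (n = 3). Amd1 was 74.8 ± 12.04, 68.6 ± 48.9 and 65.3 ± 9.10 CPM in AST1, AST2 and AST3, and 126.2 ± 33.1 in AST4. Odc1 was 24.1 ± 7.58, 18.4 ± 14.1 and 18.9 ± 9.02 CPM, and 50.97 ± 30.7 in AST4, where 13.2% of cells had a count against 5.78% in AST1. The 3 AST5 sums held no count of Odc1, while 1 of the 2 AST5 cells of hippocampus 2 did, and all 26 AST5 cells summed gave 19.5 CPM. Sms was below 10 CPM in the mean of every astrocyte subtype and had a count in 76 of 1781 astrocytes. The AST5 sums of Srm were 194.3, 200.9 and 197.6 CPM, above all sums of AST1 to AST4, but with a count in only 3, 4 and 2 cells. The highest AST3 sum was 181.3 CPM and the AST4 sums were 176.1 and 79.4 CPM. The 2 AST5 cells of hippocampus 2 held no count of Srm.

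**Figure D3:**
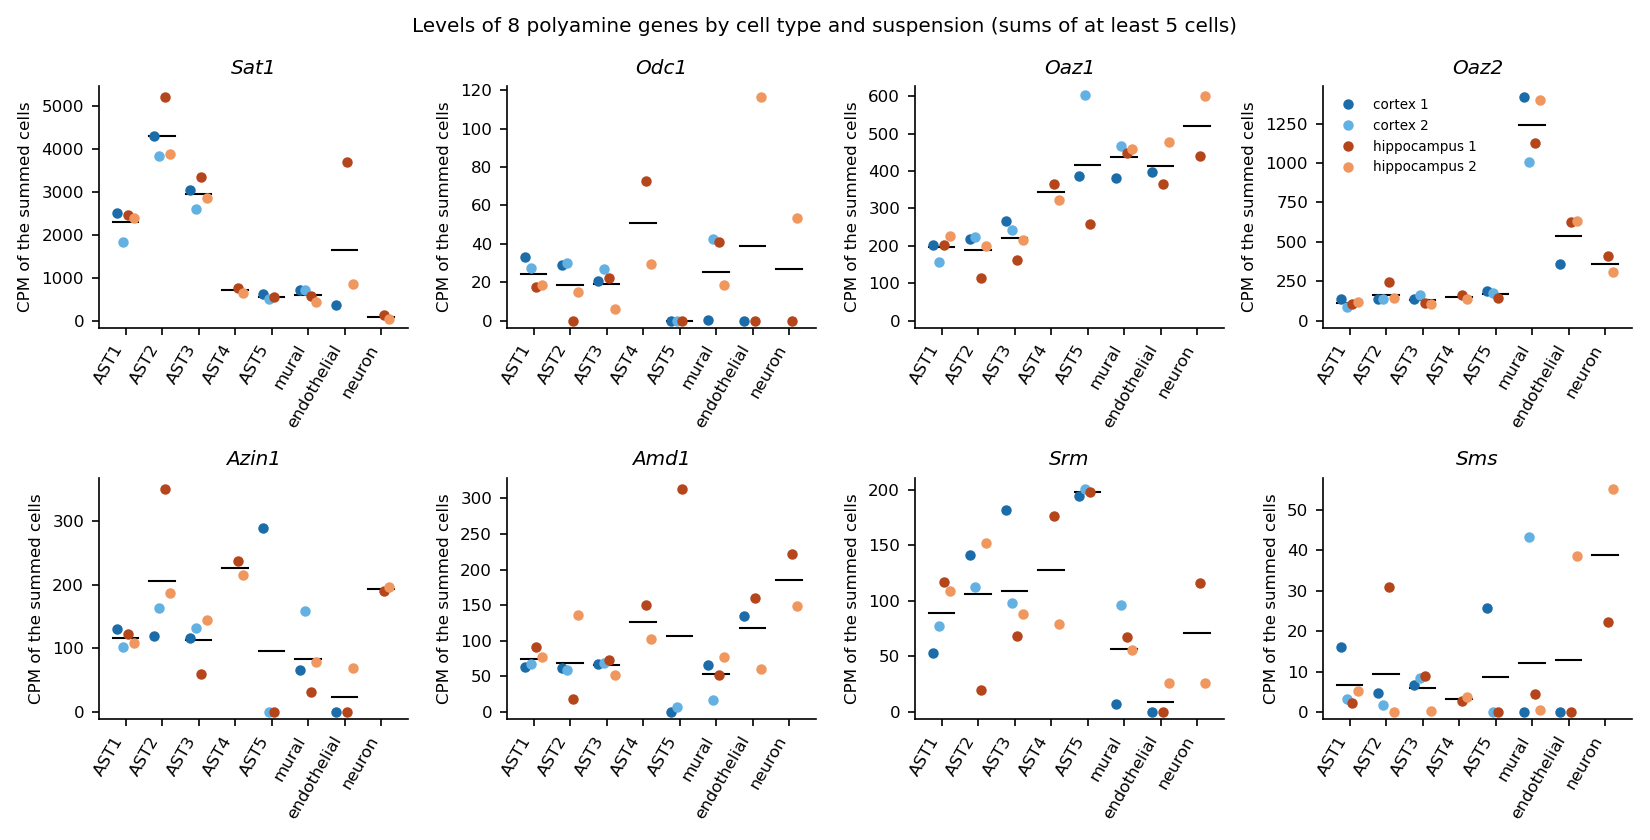
CPM of each member by cell type, 1 point per suspension with at least 5 cells of the type, coloured by suspension, with the mean as a bar; each panel has its own linear axis. Sat1 is highest in AST2 among astrocytes, and Oaz2 is highest in mural cells, at 1010 to 1422 CPM.

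Mural cells, the pericytes and smooth muscle of the vessel wall that were sorted along with astrocytes, differed from astrocytes most clearly in Oaz2. Their types were assigned in the study from these same counts, so the p-values describe how far the sums differ and are no independent test. Oaz2 was 1422, 1010, 1127 and 1399 CPM in mural cells of cortex 1, cortex 2, hippocampus 1 and hippocampus 2, and 137.4, 140.96, 116.4 and 117.5 CPM in astrocytes. Every mural sum lay far above every astrocyte sum. Oaz2 rose by 2.79 on the log2 scale (SE 0.27, adjusted p = 0.000579 by edgeR), and it had a count in 84.3% of mural cells (77.2 to 89.5%) against 32.2% of astrocytes (30.1 to 34.4%), at median depths of 1216970 and 1469310 gene counts. On the scale relative to ERCC counts it was 16548 ± 3135 in mural cells and 2692 ± 481 in astrocytes (n = 4 each). The call held in all 10 alternatives, with the suspension as a block included (adjusted p = 0.00251).

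Sat1 moved the other way. In mural cells it was 703, 715, 575 and 427 CPM, each below every astrocyte sum, and it fell by 2.75 on the log2 scale (SE 0.57, adjusted p = 0.0238 by edgeR). A count was present in 51.5% of mural cells (43.1 to 59.8%) against 94.6% of astrocytes, and the median mural cell was below 1 CPM. The call was lost without cortex 1 (adjusted p = 0.0757), cortex 2 (0.0926) or hippocampus 2 (0.0773), and held with the suspension as a block (0.0409). Each suspension's mural cells and astrocytes come from the same mice.

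Of the 8 members, Oaz2 alone was called higher in mural cells, where 2.93% of the 17655 genes tested were called higher, and Sat1 alone lower, where 14.5% were. With the suspension as a block 464 genes were called in place of 3075. The median log2 difference was -0.78 over the members and -1.29 over all genes. Oaz1 was 380, 466, 448 and 460 CPM in mural cells, above its astrocyte sums of 210.8 to 236.4 CPM, but its log2 difference was 0.46 (SE 0.23, adjusted p = 0.232) and 0.94 (adjusted p = 0.0203) when only the total counts were used for scaling. The synthesis genes were not called: Srm was 56.7 ± 36.9 CPM in mural cells and 117.1 ± 19.7 in astrocytes, without overlap, Amd1 52.9 ± 26.3 and 74.5 ± 15.4, Odc1 25.3 ± 20.1 and 23.8 ± 4.38, and Sms 12.02 ± 20.9 and 4.79 ± 1.61. Azin1 was 83.6 ± 53.8 against 131.02 ± 9.51 CPM. How many of all genes separate between mural and astrocyte sums was not counted, so no result about the members is drawn from the separation alone. The astrocyte markers were at 3134 to 3484 CPM in mural sums, and immediate early genes were higher there as given above, whose part in these differences was not tested.

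Endothelial cells, which line the vessel, were compared over 3 sums of 9, 6 and 12 cells, since cortex 2 held only 3. Oaz2 was 358.3, 623 and 630 CPM in cortex 1, hippocampus 1 and hippocampus 2, above all astrocyte sums, and rose by 1.17 on the log2 scale (SE 0.28, adjusted p = 0.0411 by edgeR). This call was lost with the suspension as a block (adjusted p = 0.129), without the low-count filter (0.0623) and without any of the 4 suspensions (0.0563 to 0.138). In these 3 sums mural markers reached 10008 to 17266 CPM, and immediate early and stress genes 10469 to 19590 CPM. The part of either list in the Oaz2 level was not tested. Sat1 was uneven, at 358.7, 3702 and 853 CPM, with a log2 difference of -1.87 (SE 0.66, adjusted p = 0.0779), and passed the test with thinned cells (0.0403) and with sums of at least 3 cells (0.0259).

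Of the 8 members 1 was called higher in endothelial cells (2.7% of all genes higher) and none lower (14.7% of all genes lower). The median log2 difference was -0.42 over the members and -2.79 over all genes. With the suspension as a block 388 genes were called in place of 3077, and with scaling by total counts alone 721 genes were called higher and 1975 lower in place of 477 and 2600. Oaz1 was 397, 366.1 and 476 CPM, above its astrocyte sums. The share of all genes whose endothelial sums separate from the astrocyte sums was not counted either. Srm had counts in 2 of 30 endothelial cells and Azin1 in 4 of 30, against 28.5% and 25.8% of astrocytes. Neither passed the test.

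The antizymes were also high in neurons. Oaz1 was 440 and 600 CPM and Oaz2 407 and 305.3 CPM in the 8 and 9 hippocampal neurons, and all 17 neurons had an Oaz1 count. None of the 11 microglia had a count of Oaz2 (Wilson upper bound 25.9%), while 8 had Oaz1. Amd1 had a count in 1 of the 11 microglia and in 7 of the 9 oligodendrocytes. Astrocytes of hippocampus 1 and 2 were at 210.8 and 235.2 CPM for Oaz1 and at 116.4 and 117.5 CPM for Oaz2, below the neurons of the same suspensions. The neurons were not tested, and the few microglia and oligodendrocytes allow no comparison over suspensions.

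Among the other 28 genes, the clearest difference was in a transporter. Atp13a5, a P5B ATPase of the family that carries polyamines, was 5702, 7287, 6428 and 6678 CPM in mural cells against 37.5 to 47.8 CPM in astrocytes. It rose by 6.75 on the log2 scale (SE 0.43, adjusted p = 0.000119 by edgeR) and had a count in 96.3% of mural cells. In endothelial cells it was 1730, 544 and 1236 CPM (log2 difference 3.97, SE 0.39, adjusted p = 0.000826), again beside the mural markers given above. Its relative Atp13a4 was 320.6 ± 16.6 CPM in astrocytes (n = 4) and at most 0.0791 CPM in the 3 endothelial sums (adjusted p = 0.0245), a call that held in 6 of 11 alternatives (highest adjusted p 0.138) and was lost with the suspension as a block (0.0677). Of the 3 endothelial cells of cortex 2, too few to enter the test, 1 held counts, which put them at 89.6 CPM together. In mural cells it was uneven, at 122.03 ± 203.7 CPM with 1 sum of 425.7 CPM above every astrocyte sum, and it was not called.

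Slc3a2, the heavy chain shared by amino acid exchangers and linked to polyamine export, was 248.8, 135, 445 and 494 CPM in mural cells and 1091 to 1487 CPM in astrocytes. It fell by 2.51 on the log2 scale (SE 0.43, adjusted p = 0.0114), a call lost without cortex 1 (0.0929) or either hippocampal suspension (0.0686 for each). Arg2, an arginase, was also called lower in mural cells, where all sums were at 0, but only 14 of 1781 astrocytes held a count (0.297 CPM), so that 0 among mural cells says little, and the call held in 3 of 8 alternatives and was lost with the suspension as a block (0.136). Of the 23 other genes tested, 1 was called higher and 2 lower in mural cells, where 2.93% and 14.5% of all genes were, and 1 higher and 1 lower in endothelial cells, where 2.7% and 14.7% were.

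The enzymes that act on the products of Sat1 and on spermine were not called in vessel cells in the main edgeR fits. Smox, spermine oxidase, was 311.1 ± 34.4 CPM in astrocytes, 50.8% of which had a count, 21.9 ± 16.6 in mural and 355.1 ± 363.005 in endothelial cells. Paox, which oxidises acetylated polyamines, was 4.64 ± 1.11 CPM in astrocytes and had a count in 2.81% of all cells. Sat2, named as a relative of Sat1, was 31.7 ± 12.1 CPM in astrocytes and 1.97 ± 3.94 in mural cells. Among the alternatives, Paox was called lower in endothelial cells in 2 of 11. Sat2 was called lower in 2 of 11 for endothelial and in 1 of 10 for mural cells. Eif5a, the target of hypusine synthesis, was 250 ± 11.9 CPM in astrocytes and 423 ± 71.1 in mural cells and was not called.

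**Figure D4:**
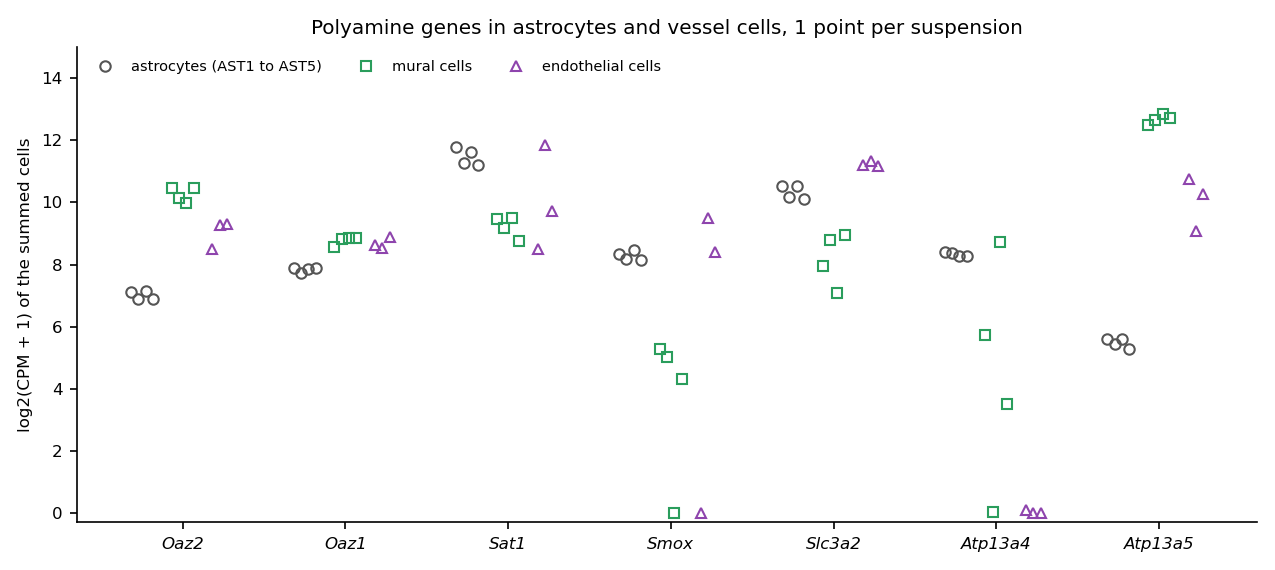
Members and related genes in astrocytes (circles), mural cells (squares) and endothelial cells (triangles) as log2(CPM + 1), 1 point per suspension with at least 5 cells. Oaz1, Oaz2 and Atp13a5 are higher and Sat1, Smox and Slc3a2 lower in every mural sum than in every astrocyte sum. Of these, Oaz1 and Smox were not called. The genes shown are a selection, and how many of all genes separate in this way was not counted. Atp13a4 in mural cells and Smox and Sat1 in endothelial cells are spread widely.

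**Figure D5:**
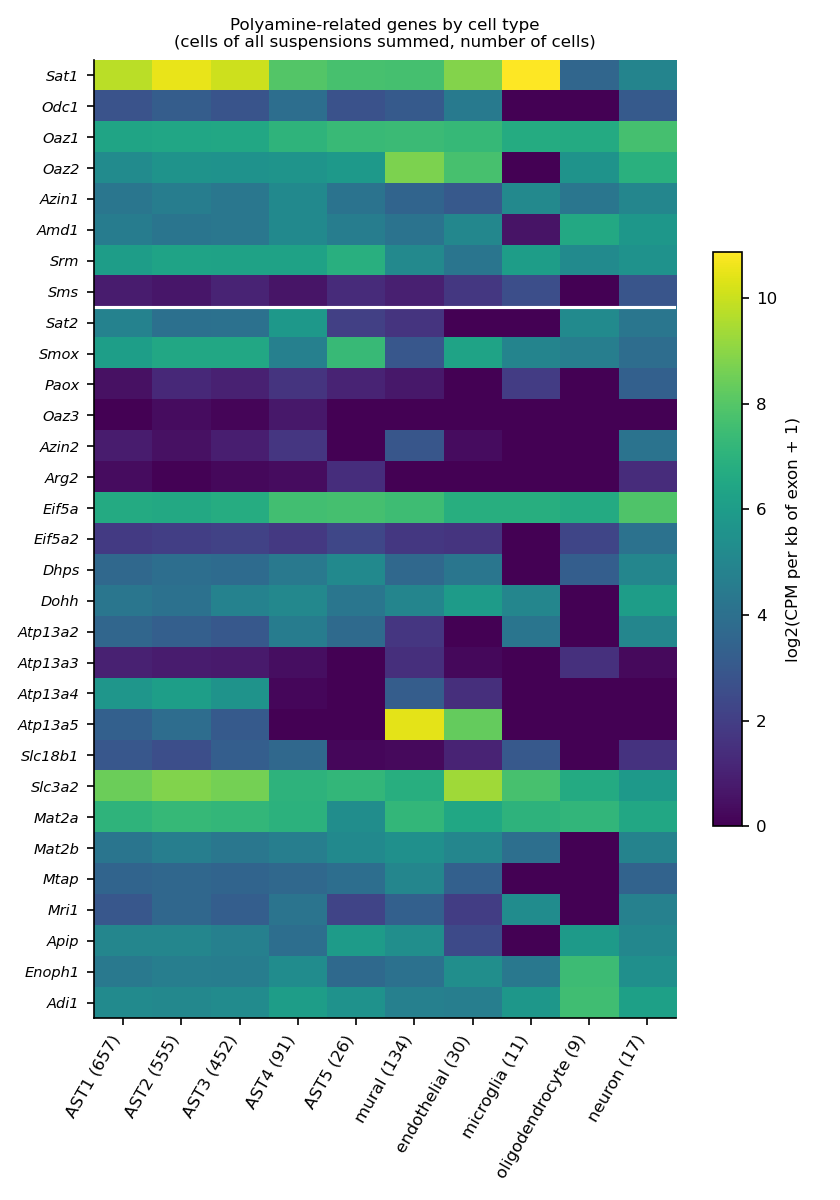
All 8 members (above the white line) and the 23 related genes tested, by cell type, as log2(CPM per kilobase of exon + 1) of the cells of all suspensions summed, with the number of cells beside each type. Sat1 is bright in AST1 to AST3 and microglia, Atp13a5 in mural and endothelial cells, and Slc3a2 in endothelial cells and AST1 to AST3.

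Genes whose level followed a member were sought over 26 sums of at least 5 cells, among 7775 genes with a mean of at least 20 CPM, by Pearson's r of log2(CPM + 1). The sums share suspensions and a few cell types, and members with few counts are at 0 in some small sums, such as Odc1 in the 3 AST5 sums. What r reflects, cell type or such zeros, was not tested, and the genes named are the highest of all those compared. Nearest to Sat1 were Mertk (0.88), a phagocytic receptor, Atp6v0e (0.86), Idua (0.86), Smpdl3a (0.84) and Timp3 (0.83). Nearest to Oaz2 were Plxdc1 (0.94) and Cysltr2 (0.93), and nearest to Oaz1 its own copy Oaz1-ps (0.97) and Gm8797 (0.90). For the other members they were Zscan29 and Mr1 for Odc1 (0.95 and 0.93), Ei24 and Cdc123 for Azin1 (0.95 and 0.94), Set and Ssr4 for Amd1 (0.86 and 0.85), Tmem126a and Hdac3 for Srm (both 0.91), and Coq10a and Zfp30 for Sms (0.72 and 0.69).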

How the data were processed

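Each deposited file holds the raw gene counts of 1 cell. The authors aligned reads with STAR 2.5.2b to GRCm38.p5 with the Gencode annotation plus the ERCC sequences, and HTSeq counted the reads that mapped uniquely (FastQC 0.11.4, per the labels); libraries did not keep strand. In 32 columns the deposited series table was checked against these files, and 1999 further columns of it were not used. Cells missing from the list of types (33) or without a type (15) entered no comparison of types. Positions and exon lengths are from a later GENCODE release on GRCm38 than the counts, while the identifiers carry the versions of the count files. In the later release Odc1 is ENSMUSG00000011179.8 and Azin1 is ENSMUSG00000037458.15. A symbol was given to 49326 of 49671 identifiers.

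Counts were summed per type and suspension (at least 5 cells) and tested with edgeR 4.0.16 in R 4.3.3: TMM, the low-count filter, robust quasi-likelihood fits, Benjamini-Hochberg adjustment over all genes, called under 0.05. SE was derived from the test, as the size of the log2 difference divided by the square root of the quasi-likelihood F statistic. Regions were compared over all astrocytes and, in a joint fit, within AST1, AST2 and AST3; mural and endothelial cells were compared with astrocytes with a term for region. Mural cells and astrocytes of a suspension come from the same mice, which pairs them; correlations of their deviations from the type means lay between -0.01 and 0.04. Fits were tested on simulated sums with planted changes of 2 or 6 on the log2 scale. They missed most changes of 2. Of the changes of 6 they found 54 of 198 in AST3 and 19 of 187 in mural cells. Apart from the planted changes, a simulated gene had the same mean in all sums, unlike in the data. A gene that was not called may still differ. Alternatives were other size factors, DESeq2 1.42.0, no filter, thinning to 50000 counts, a replicate block, each suspension left out, subtypes alone, library batches and smaller sums; scaling by total counts alone was added after the data had been seen. Amplified reads were counted rather than molecules. The Wilson intervals treat the cells of all suspensions as 1 sample, so they leave out the spread between suspensions. For Sat1 in mural cells the share ran from 40.4% in hippocampus 2 to 66.7% in cortex 1, beyond the interval of 43.1 to 59.8%.

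The members and lists were chosen with earlier results of these data known. Genes named are the 8 members, the related genes that were called or exemplify a role, copies of members, and the 5 (Sat1) or 2 genes most like a member. Python 3.11.15, numpy 2.4.6, pandas 2.3.3 and scipy 1.17.1 were used.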

Additional observations from a re-analysis of the deposited data

Results flagged for a closer look

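Of 40 groups of 4 suspensions tested with Dixon's ratio, which by chance marks about 1 group in 20, 4 held a suspension far from the others. Oaz2 in AST2 was 242.3 CPM in hippocampus 1, where the next value was 144.1 CPM. Sms stood apart in 3 groups: in AST2 it was 30.8 CPM in hippocampus 1, from 1 of 10 cells, against a next value of 4.82 CPM; in astrocytes as a whole it was 7.18 CPM in cortex 1 against 4.26 CPM; and in mural cells it was 43.3 CPM in cortex 2, from 1 of 12 cells, against 4.37 CPM. For the region effect of Dohh an interaction test in edgeR gave -14.6 on the log2 scale for AST2 minus AST1 (adjusted p = 0.00736) and 15.4 for AST3 minus AST2 (adjusted p = 0.00603). Both are fitted against 0 counts in the 10 and 22 hippocampal AST2 cells, while 34 of all 555 AST2 cells (6.13%) held a count, so they give no size and do not show that the effect differs. The AST2 call behind them was lost without either cortical suspension and with AST2 fitted alone.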

How the results depend on the processing

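The share of tested genes that was called moved with the processing in every comparison, and the causes were not tested. Between regions over all astrocytes, DESeq2 called 9.51% and thinned cells gave 1.4%, against 0.0%. In AST1 (0.0109%) the alternatives gave 8.45% with DESeq2, 0.00543% with other size factors and with total counts alone, 0.00391% without a filter, 0.00734% with thinned cells, and 0.0% fitted alone. In AST2 (4.16%) they gave 23% with DESeq2, 3.34% with thinned cells and 0.0% fitted alone, and in AST3 (0.0272%) 6.79% with DESeq2, 0.0109% with total counts alone and 0.0% fitted alone. In mural cells (17.4%) DESeq2 gave 33.7% and no filter 7.44%, and in endothelial cells (17.4%) 41.3% and 2.76%. With 1 suspension left out the shares were 0.0% in AST1 and AST3, and ranged from 0.0 to 18.6% in AST2, from 1.63 to 2.47% in mural and from 1.51 to 4.43% in endothelial cells.

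The replicate block left 2.63% called in mural and 2.2% in endothelial cells, ended the endothelial call of Oaz2 and those of Arg2 and Atp13a4, and changed no other call of a member. Region suspensions share only a number (the deviations of equal numbers correlated at 0.03), and blocking on it left 0.0% called in AST1.

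Sat1 in AST2, at 0.04 for hippocampus minus cortex, changed sign without a filter (-0.0014), with thinned cells (-0.038), and with suspensions left out, where it ranged from -0.088 to 0.13. Over all members and comparisons 43 of 536 log2 values changed sign, in 20 of 48 pairs of gene and comparison. Using total counts alone moved the median of all genes from -1.29 to -0.83 in mural and from -2.79 to -1.99 in endothelial cells. Averaging over cells moved 18 of 240 CPM values by more than the spread, and thinning 11 of 88 shares. Sms and Odc1 were detected in few cells, so a single cell can set a sum, and at this depth a cell without a count is not shown to lack the gene.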
